A study of Homo sapiens with 6 samples.

Results

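The genes described here are 10 listed neighbours of EGFR on the short arm of chromosome 7 (7p11): SEC61G, LANCL2, VOPP1, ZNF713, MRPS17, NIPSNAP2, CCT6A, SUMF2, PHKG1 and CHCHD2. They were chosen by name and position, with earlier results of these data known. All 10 were found among the 28395 genes of the count table and among the 13950 genes with enough counts to test. The cells were MDA-MB-468, a human cell line from a triple-negative breast tumour that carries an amplified EGFR locus, and MDA-MB-468-PR, a derivative kept in 3 to 4.5 nM paclitaxel, a microtubule-stabilising agent, for 2 months. RNA-seq was done on 3 libraries of the parent, here called control, and on 3 of the resistant derivative, and the labels give no treatment at harvest for any of the 6. Control replicate 1 and resistant replicate 1 belong to a batch of 2020 and the other 4 libraries to a batch of 2021. All resistant libraries come from this single derivative, so an effect of the drug cannot be told apart from other changes during its culture. Copy number was not measured, and the number of gene copies and the RNA made per copy cannot be told apart in these values.

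Total counts were 37889818 to 93680129 per library, and values from each group are listed below in the order of replicates 1 to 3. Messenger RNA was captured with exome probes, so a count also depends on the probes of a gene. All 8 markers of the labelled line (EPCAM, CDH1, KRT5, KRT8, KRT18, KRT17, EGFR and VIM) stood above 1 CPM, the usual depth-scaled unit of RNA-seq counts (here with TMM factors), in every library, with a summed level of 7343 to 9631 CPM in the controls and 9613 to 12468 CPM in the resistant line. This sum includes EGFR itself, at 2908 to 7372 CPM over all libraries. Of the receptors that triple-negative cells lack or express weakly, PGR had no count, ESR1 stood at 0.738 to 4.55 CPM and ERBB2 at 93.5 to 138 CPM. Of 7 markers of leukocytes, endothelium and fibroblasts, COL1A1 alone was above 1 CPM in every library. Their summed level was 25.2 to 32.2 CPM in the controls and 26.1 to 29.7 CPM in the resistant line.

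EGFR encodes a receptor tyrosine kinase that drives growth, and amplification of its locus usually takes flanking DNA with it. Genes that share an amplified segment gain copies together, whereas their RNA also depends on each gene's own promoter and on RNA stability. The neighbours serve unrelated functions. SEC61G is a subunit of the channel that moves proteins into the endoplasmic reticulum. LANCL2 is a membrane-associated protein of the lanthionine synthetase C-like family, and VOPP1 is a vesicular protein described in cancers with EGFR amplification. MRPS17 is a protein of the mitochondrial ribosome, and NIPSNAP2 and CHCHD2 are mitochondrial proteins. CCT6A is a subunit of the chaperonin that folds actin and tubulin, SUMF2 is a relative of the sulfatase-modifying enzyme of the endoplasmic reticulum, PHKG1 is a catalytic subunit of phosphorylase kinase, and ZNF713 is a zinc-finger protein.

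The genes lie close together and some can exchange reads. On GRCh38 the order is SEC61G (54752253 to 54759211), EGFR (55019017 to 55211628), LANCL2 (55365337 to 55433737), VOPP1 (55434964 to 55572502), ZNF713 (55887456 to 55942225), MRPS17 (55951877 to 55956500), NIPSNAP2 (55964585 to 56000179), CCT6A (56051765 to 56063989), SUMF2 (56064286 to 56087946), PHKG1 (56080295 to 56092952) and CHCHD2 (56101573 to 56106476). LANCL2 and VOPP1 point at each other and are 1226 bases apart at their 3′ ends. SUMF2 and PHKG1 lie on opposite strands and overlap by 7652 bases, and 388 of the 2235 exonic bases of PHKG1 in GENCODE 29 are exonic in SUMF2 as well. CCT6A ends 296 bases before SUMF2 starts. Whether reads were counted by strand is not given in the sources used here.

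The 250 bases before the annotated start are shown for EGFR and VOPP1, the genes of the locus that were higher in the resistant line, and for SEC61G and SUMF2, whose upstream sequence is shared with or borders another gene. They are from RefSeq on GRCh38.p14, where 8 of the 10 neighbours had such a sequence at their annotated start (LANCL2 and CCT6A had none). Each is written 5′ to 3′ on the strand of its gene. Capitals mark matches on either strand to the GC box (GGGCGG) or the CCAAT box (CCAAT), the motifs found in these 4 sequences among 7 that were searched. The sequences shown were picked after the genes' values had been seen.
EGFR, chr7:55018767-55019016, plus strand: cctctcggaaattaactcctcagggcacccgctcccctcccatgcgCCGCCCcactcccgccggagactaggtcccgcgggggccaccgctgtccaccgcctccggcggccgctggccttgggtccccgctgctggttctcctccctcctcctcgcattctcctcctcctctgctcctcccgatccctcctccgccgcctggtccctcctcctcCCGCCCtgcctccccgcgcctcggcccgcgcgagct
VOPP1, chr7:55572503-55572752, minus strand: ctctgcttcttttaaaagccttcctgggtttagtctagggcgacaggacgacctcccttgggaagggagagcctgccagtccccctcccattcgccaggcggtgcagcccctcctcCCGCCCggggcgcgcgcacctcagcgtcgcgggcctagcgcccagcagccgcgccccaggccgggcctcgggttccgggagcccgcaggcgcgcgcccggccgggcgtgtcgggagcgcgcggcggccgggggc
SEC61G, chr7:54759212-54759461, minus strand: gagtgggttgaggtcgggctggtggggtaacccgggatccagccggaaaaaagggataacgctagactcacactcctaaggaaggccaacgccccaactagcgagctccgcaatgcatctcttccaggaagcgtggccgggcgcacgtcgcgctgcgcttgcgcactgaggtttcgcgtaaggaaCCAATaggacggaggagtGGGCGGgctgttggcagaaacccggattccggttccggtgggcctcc
SUMF2, chr7:56064036-56064285, plus strand: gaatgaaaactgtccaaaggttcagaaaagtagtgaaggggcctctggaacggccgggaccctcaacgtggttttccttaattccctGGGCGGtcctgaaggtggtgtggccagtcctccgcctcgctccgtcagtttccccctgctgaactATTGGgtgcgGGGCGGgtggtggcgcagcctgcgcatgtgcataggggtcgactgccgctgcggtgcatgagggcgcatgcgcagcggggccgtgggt
The sequences of EGFR and VOPP1 are rich in G and C (73.6% and 75.2%) and hold 2 and 1 matches to the GC box and none to the other motifs, and those of SEC61G and SUMF2 hold both kinds of match. The remaining motifs searched were the TATA box (TATAAA), the AP-1 site (TGANTCA), the TEAD site (GGAATG), the ETS site (CCGGAAG) and the E-box (CACGTG). Over all 35116 sequences of the same length in that table, 42.6% hold a GC box, 32% a CCAAT box, 10.7% a TATA box, 6.57% an AP-1 site, 11.9% a TEAD site, 8.52% an ETS site and 6.34% an E-box. A match describes letters and shows no binding. The sequence before SEC61G runs into SEC61G-DT, a non-coding gene that starts 101 bases away in the opposite direction, and the sequence before SUMF2 lies wholly in the gap behind CCT6A.

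To ask whether the neighbours changed with EGFR, resistant and control libraries were compared by edgeR's quasi-likelihood test, with a batch term and Benjamini-Hochberg adjustment over all tested genes. EGFR itself stood at 5215, 2908 and 3200 CPM in the control libraries and at 7372, 5102 and 5419 CPM in the resistant libraries. It was higher in the resistant line by 1.61-fold (log2 fold change 0.69 ± 0.14 SE, adjusted p = 0.0205). Resistant replicate 2 lay just below control replicate 1, so the groups overlapped, while within each batch the resistant libraries were above the controls. In bulk RNA, more cells with a transcript and more of it per cell cannot be told apart.

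Of the 10 neighbours, VOPP1 rose and the other 9 did not pass. Among all tested genes 6.17% were called higher and 5.33% lower, so 1 gene in 10 is close to the background of 11.5% and says nothing about the neighbours as a group. VOPP1 stood at 130, 158 and 81.2 CPM in the control libraries and at 197, 246 and 276 CPM in the resistant libraries. All resistant libraries were above all control libraries, a separation found for 10.7% of tested genes in this direction, 10.2% in the other and 20.9% in either. Its fitted rise was 1.94-fold (log2 fold change 0.95 ± 0.24 SE, 95% interval 1.33 to 2.82 as a fold, adjusted p = 0.0384), with a difference of 0.60 in 2020 and 1.20 in 2021. This call lies near the threshold and hangs on a setting: it holds with edgeR's default fit and ends with its robust option (adjusted p = 0.055), and the default was kept after both results for VOPP1 had been seen. The adjusted p of VOPP1 was 0.0524 with the replicate number as a block, 0.0535 in the 2021 batch alone and 0.0986 without the batch term. It was 0.0536 without control replicate 1 and 0.0555, 0.0893 and 0.15 without resistant replicates 1, 2 and 3, while the log2 fold change stayed between 0.67 and 1.21 over 17 alternative settings. EGFR lost its call with the replicate block (adjusted p = 0.0605), without the batch term (0.292), in 2021 alone (0.115), without control replicate 1 or 3 (0.084 and 0.0588) and without resistant replicate 1, 2 or 3 (0.0709, 0.0843 and 0.0635). It also lost it with edgeR's newer quasi-likelihood method (adjusted p = 0.0996), in which VOPP1 had an adjusted p of 0.0357.

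**Figure D1:**
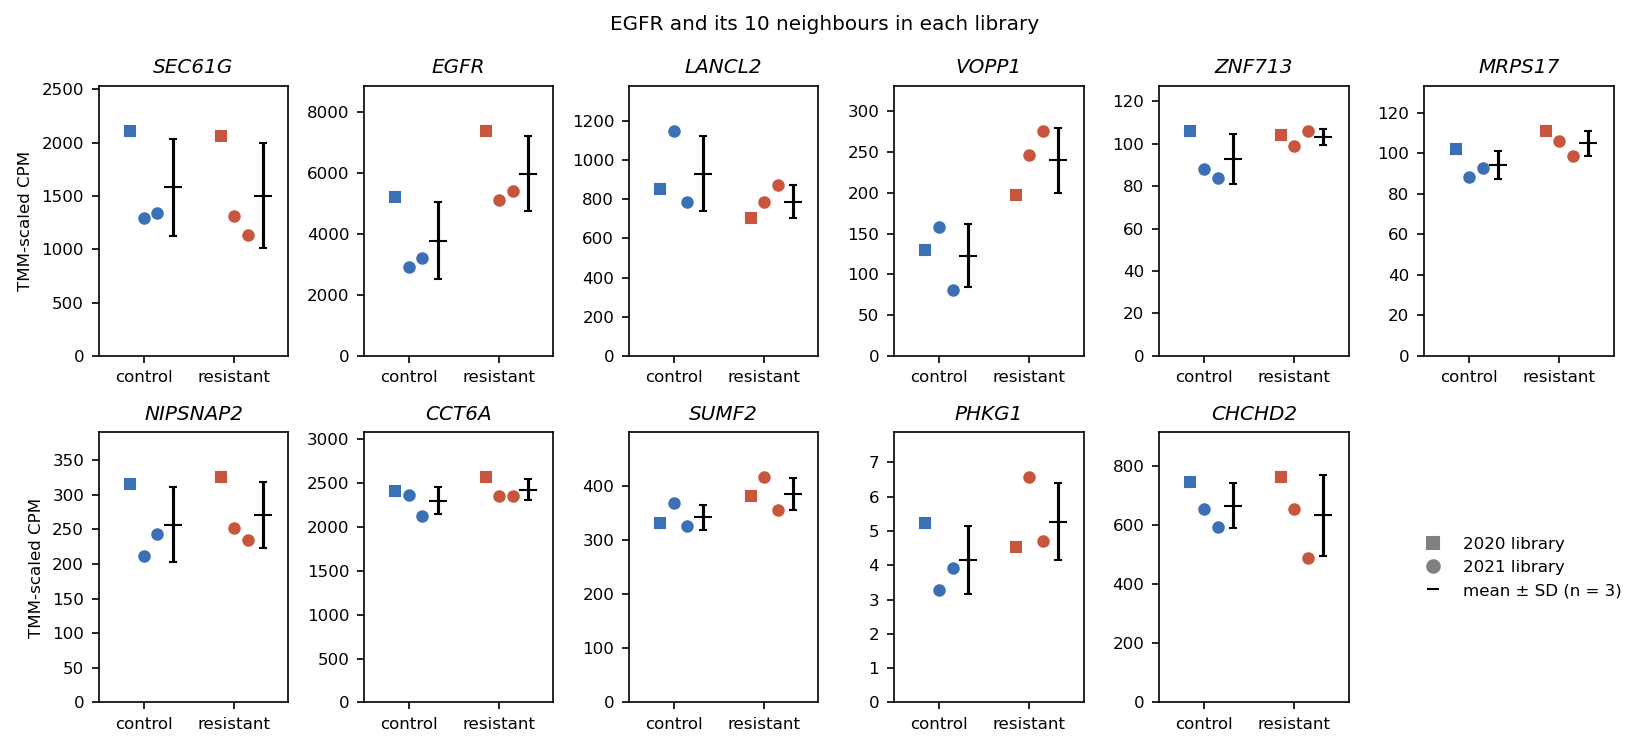
TMM-scaled CPM of EGFR and its 10 neighbours in each library, each panel on its own axis from 0, with squares for 2020, circles for 2021, and the mean ± SD of 3 libraries as a bar beside each group. The resistant VOPP1 values (197 to 276 CPM) lie above all control values (81.2 to 158 CPM), and the groups overlap in each of the other panels.

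**Figure D2:**
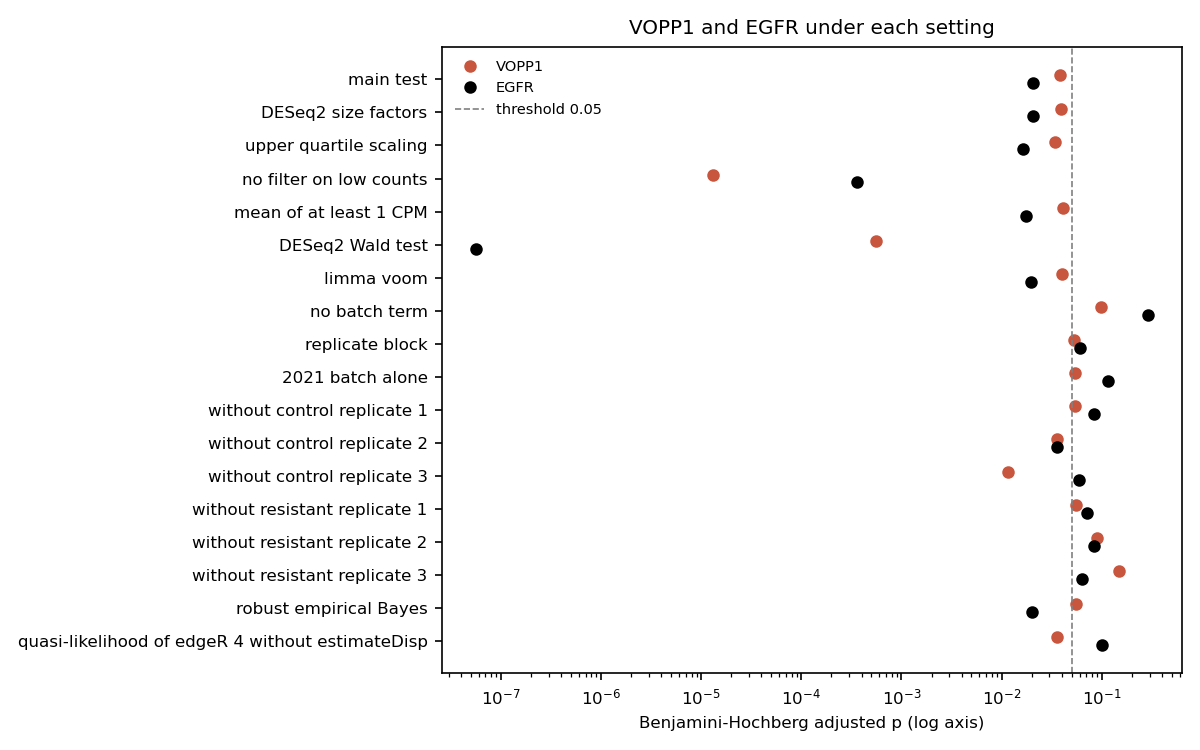
Adjusted p of VOPP1 and EGFR on a log axis in the main test and in 17 alternative settings, with the threshold of 0.05 as a dashed line. VOPP1 passed in 9 and EGFR in 8 of the 17.

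SEC61G and LANCL2, the neighbours on either side of EGFR, were not called. SEC61G stood at 2110, 1293 and 1337 CPM in the control libraries and at 2066, 1308 and 1136 CPM in the resistant libraries. Both 2020 libraries were high and the 4 libraries of 2021 lower, in either line. The fitted log2 fold change of SEC61G was -0.081 ± 0.12 SE (adjusted p = 0.714). LANCL2 stood at 854, 1148 and 787 CPM in the control libraries and at 703, 787 and 874 CPM in the resistant libraries. Control replicate 2 was the highest library, and the groups overlapped (log2 fold change -0.24 ± 0.16 SE, adjusted p = 0.372). LANCL2 lies between EGFR and VOPP1 on the chromosome, and its fitted difference was negative whereas theirs were positive.

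The 3 mitochondrial neighbours also overlapped between the lines. MRPS17 stood at 102, 88.5 and 92.7 CPM in the control libraries and at 111, 106 and 98.9 CPM in the resistant libraries (log2 fold change 0.16 ± 0.09 SE, adjusted p = 0.302). Its spread was small, and control replicate 1 fell among the resistant values. NIPSNAP2 stood at 316, 212 and 243 CPM in the control libraries and at 325, 252 and 235 CPM in the resistant libraries (adjusted p = 0.676). As for SEC61G, its highest values were those of 2020 in both lines. CHCHD2 stood at 746, 655 and 594 CPM in the control libraries and at 761, 654 and 488 CPM in the resistant libraries (adjusted p = 0.768). Resistant replicate 3 was the lowest library of CHCHD2, and without it the log2 fold change went from -0.076 to 0.041.

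Of the chaperonin and enzyme genes, none was called. CCT6A stood at 2405, 2363 and 2120 CPM in the control libraries and at 2563, 2357 and 2349 CPM in the resistant libraries (log2 fold change 0.077 ± 0.12 SE, adjusted p = 0.732). The pseudogenes CCT6P1 and CCT6P3, with which CCT6A could share reads, were at 3.9 to 7.43 CPM. SUMF2 stood at 331, 368 and 327 CPM in the control libraries and at 381, 416 and 356 CPM in the resistant libraries (log2 fold change 0.17 ± 0.11 SE, adjusted p = 0.386). Resistant replicate 3 lay below control replicate 2, so the groups overlapped. PHKG1, which overlaps SUMF2, was the lowest of the neighbours at 5.24, 3.29 and 3.91 CPM in the controls and 4.52, 6.56 and 4.71 CPM in the resistant line (211, 184 and 265 counts, then 168, 437 and 454). The log2 fold change of PHKG1 was 0.37 ± 0.23 SE (adjusted p = 0.362), and it had opposite signs in the batches, -0.21 in 2020 and 0.63 in 2021. ZNF713 stood at 106, 88 and 84 CPM in the control libraries and at 104, 98.9 and 106 CPM in the resistant libraries (log2 fold change 0.16 ± 0.10 SE, adjusted p = 0.357). Control replicate 1 was as high as the resistant libraries, and the difference was -0.03 in 2020 and 0.25 in 2021.

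A missed threshold does not show that a gene was unchanged, so the intervals bear on how large a change could be. The upper 95% limit of the fold change was 1.09 for LANCL2, 1.15 for SEC61G, 1.18 for CHCHD2 and 1.25 for NIPSNAP2, each below 1.28, the lower limit of EGFR. It was 1.29 for MRPS17 and for CCT6A, 1.31 for ZNF713, 1.35 for SUMF2 and 1.87 for PHKG1. For 8 of the 9 genes it was below the fitted 1.61-fold of EGFR, the exception being PHKG1. These limits hold for the main test, where the SE of the log2 fold change of EGFR was 0.14. That SE was 0.23 with the newer quasi-likelihood method, 0.25 in 2021 alone and 0.27 without the batch term. Intervals were not compared in those settings, and no test compared a neighbour's fold change with that of EGFR in the main fit. In simulated counts with 200 changed genes the test recovered 35.3% of genes changed 1.5-fold and 71.3% of genes changed 2-fold. The changed genes were drawn at random from all tested genes. In the data 1604 genes were called, and the Benjamini-Hochberg cutoff depends on how many genes differ. Recovery in the data may therefore differ from that in the simulation. Recovery at the levels of the neighbours was not computed. The median log2 fold change was 0.12 over the 10 neighbours and -0.0039 over all tested genes, and 7 of the 10 were above 0.

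**Figure D3:**
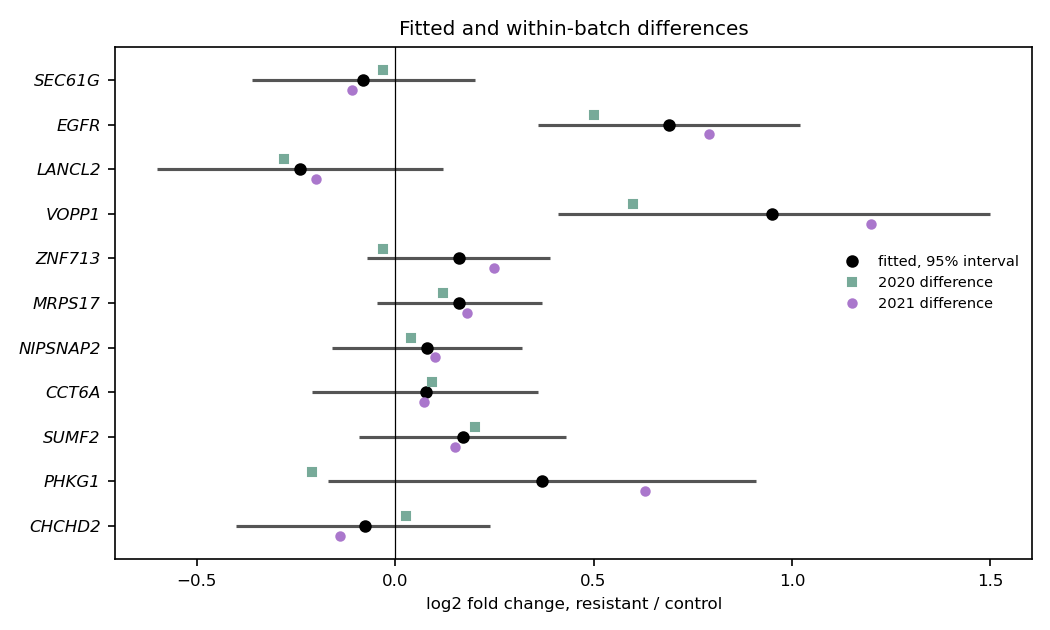
Fitted log2 fold change of resistant over control with its 95% interval (black), and the difference within 2020 (squares, 1 library per line) and 2021 (circles, 2 libraries per line). The intervals of VOPP1 and EGFR lie above 0 and those of the other 9 genes include 0.

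Expressed as a ratio to EGFR within each library, 9 of the 10 neighbours were lower in the resistant line, in both batches, and VOPP1 was not. A lower ratio is common where EGFR itself is higher: 91.7% of the other 13949 tested genes had one, 86.8% in both batches, so the count says nothing particular of the neighbours. SEC61G was 0.405, 0.445 and 0.418 of EGFR in the controls and 0.28, 0.256 and 0.21 in the resistant line. LANCL2 was 0.164, 0.395 and 0.246 of EGFR in control and 0.0953, 0.154 and 0.161 in the resistant libraries. The groups of these ratios did not overlap for 5 genes (SEC61G, LANCL2, ZNF713, NIPSNAP2 and CHCHD2), each with an exact two-sided permutation p of 0.1, the smallest that 3 libraries against 3 can give. Of all tested genes other than EGFR, 38.3% had resistant ratios wholly below the control ratios, so 5 of 10 is no result about the neighbours. VOPP1 was 0.0249, 0.0544 and 0.0254 of EGFR in control and 0.0267, 0.0483 and 0.051 in the resistant libraries, with overlapping groups (exact p = 0.7). All 10 ratios share EGFR as denominator and are not independent of each other.

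The ratio of VOPP1 to LANCL2, the pair that meet at their 3′ ends and were compared after their values had been seen, was 0.152, 0.138 and 0.103 in the controls and 0.28, 0.313 and 0.316 in the resistant ones. The groups did not overlap, and the mean log2 difference was 1.23, or 0.89 in 2020 and 1.40 in 2021 (exact permutation p = 0.1, two-sided). Against SEC61G the groups overlapped for VOPP1 (exact p = 0.2). Over the 13 ratios compared, the smallest adjusted p was 0.217, and no ratio could pass 0.05 in this design.

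Between the batches 2 of the 10 neighbours differed, both lower in 2021. SEC61G was 1.65-fold lower in 2021 (log2 difference -0.72 ± 0.13 SE, edgeR adjusted p = 0.00998), and NIPSNAP2 was 1.36-fold lower (-0.45 ± 0.11 SE, adjusted p = 0.0266). EGFR was lower in 2021 by 1.55-fold (adjusted p = 0.0235). The other 8 neighbours did not pass. Of all tested genes 22.2% differed between batches, 11.1% higher and 11.2% lower in 2021, so 2 of 10 is close to the background. The 2020 batch holds 1 library of each line, and without either of them the number of genes called between batches fell from 3103 to 209 or 210. Whether the difference between lines depends on the batch was fitted with an edgeR interaction term. With 1 library of each line in 2020 this fit has little power, and no conclusion is drawn from it. The log2 difference, 2021 minus 2020, ran from -0.16 ± 0.333 SE (CHCHD2) to 0.86 ± 0.446 SE (PHKG1) among the neighbours.

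Within 3 Mb of the start of EGFR the table lists 39 genes, of which 16 could be tested. Besides EGFR and the 10 neighbours these were EGFR-AS1, FKBP9P1, LOC101060341, PSPH and NUPR2, and none of the 5 was called. LOC101060341, an uncharacterised gene at 55746453 to 55750715, had the largest log2 fold change in this window, 1.41 ± 0.42 SE (95% interval 0.45 to 2.38, edgeR adjusted p = 0.0688). It had 1, 7 and 12 counts in the controls and 1, 26 and 46 in the resistant line, with overlapping CPM and a difference of 0.051 in 2020 and 1.35 in 2021. PSPH, an enzyme of serine synthesis that starts 320 bases from CCT6A in the opposite direction, was at 210 to 269 CPM in the controls and 215 to 274 CPM in the resistant line (adjusted p = 0.796). The 23 untested genes had at most 2 counts in a library, and 16 had none. The untested genes include SEC61G-DT, with 1, 0 and 0 counts in control and 0, 1 and 0 in the resistant libraries, and VSTM2A and SEPTIN14, each at 0 to 2 counts. SEC61G, which starts 101 bases from SEC61G-DT, had 72356 to 109411 counts in the same libraries. Whether the capture probes cover SEC61G-DT is not given in the sources used here.

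**Figure D4:**
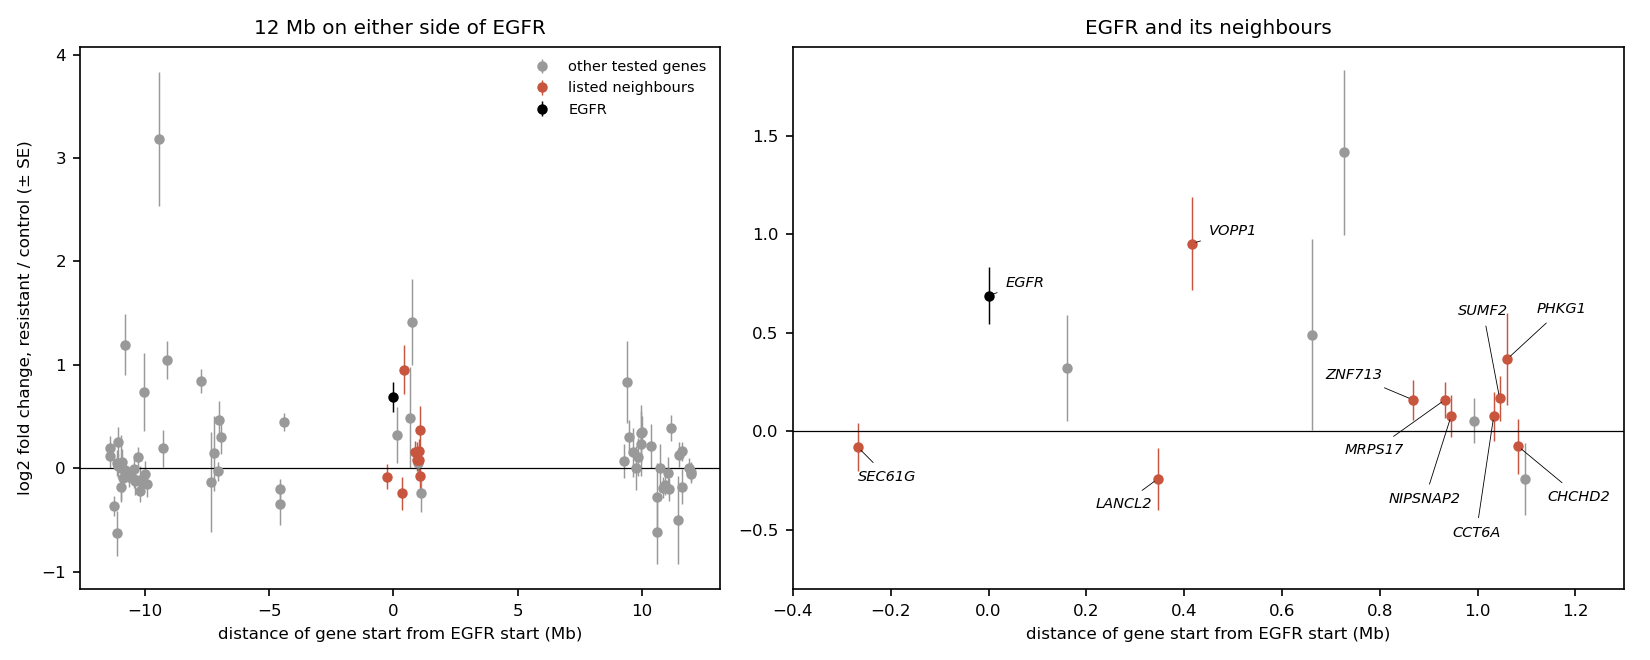
Log2 fold change of resistant over control (± SE) of tested genes by the distance of their start from the start of EGFR, over 12 Mb on either side (left) and around the neighbours (right). VOPP1 (0.95) and EGFR (0.69) stand above LANCL2 (-0.24), which lies between them, and the highest grey point near them is LOC101060341 (1.41, not called).

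Farther along chromosome 7 the shares called in either direction were 9.72% on the rest of the short arm and 8.73% on the long arm. Over all tested genes the share was 11.5%. By direction, a smaller share fell on either arm than over all tested genes. Of the 5 nearest tested genes on each side of the 3 Mb window, GRB10 was called, an adaptor that binds growth factor receptors, and it rose 1.36-fold at 4.43 Mb before EGFR (adjusted p = 0.0143). It stood at 64.8, 62.3 and 61.8 CPM in the controls and 85.3, 83.2 and 88.7 CPM in the resistant libraries. Of 216 tested genes on the rest of the short arm, 20 rose and 1 fell (9.26% and 0.463%), with a median log2 fold change of 0.066. On the long arm 30 rose and 10 fell of 458 (6.55% and 2.18%), with a median of 0.035. Over all tested genes 6.17% rose and 5.33% fell.

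Per kilobase of their longest coding transcript in GENCODE 29, most neighbours were among the most abundant RNAs of the parental line. The control mean was 2159 CPM per kb for SEC61G, 844 for CCT6A, 738 for CHCHD2, 214 for LANCL2, 167 for SUMF2, 129 for NIPSNAP2, 51.2 for MRPS17, 41.5 for VOPP1, 21.4 for ZNF713 and 1.86 for PHKG1, against a median of 7.99 over 13259 tested genes with a length. EGFR stood at 384 CPM per kb. SEC61G ranked 2 of 13259 on this scale and 1 per kilobase of coding sequence. CCT6A ranked 36, CHCHD2 ranked 51 and EGFR 111, whereas PHKG1 was below the median. Values per kilobase depend on the length used, which for SEC61G was 732 bases of transcript or 204 of coding sequence. The effect of fragment length on a transcript this short was not examined, and ranks also depend on the capture probes.

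In the order of these control levels the ranges of CCT6A and CHCHD2 overlapped, as did those of MRPS17 (48 to 55.3 CPM per kb) and VOPP1 (27.4 to 53.4), and other adjacent genes were apart over the 3 control libraries. In the resistant libraries VOPP1 stood at 66.5 to 93.3 CPM per kb, above MRPS17 at 53.6 to 60.2, so that the order of these 2 genes was the reverse. SUMF2 and LANCL2 also stood in reverse order there, with overlapping ranges. The 10 neighbours together took 0.578% to 0.692% of all counts in control and 0.609% to 0.707% in resistant libraries.

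**Figure D5:**
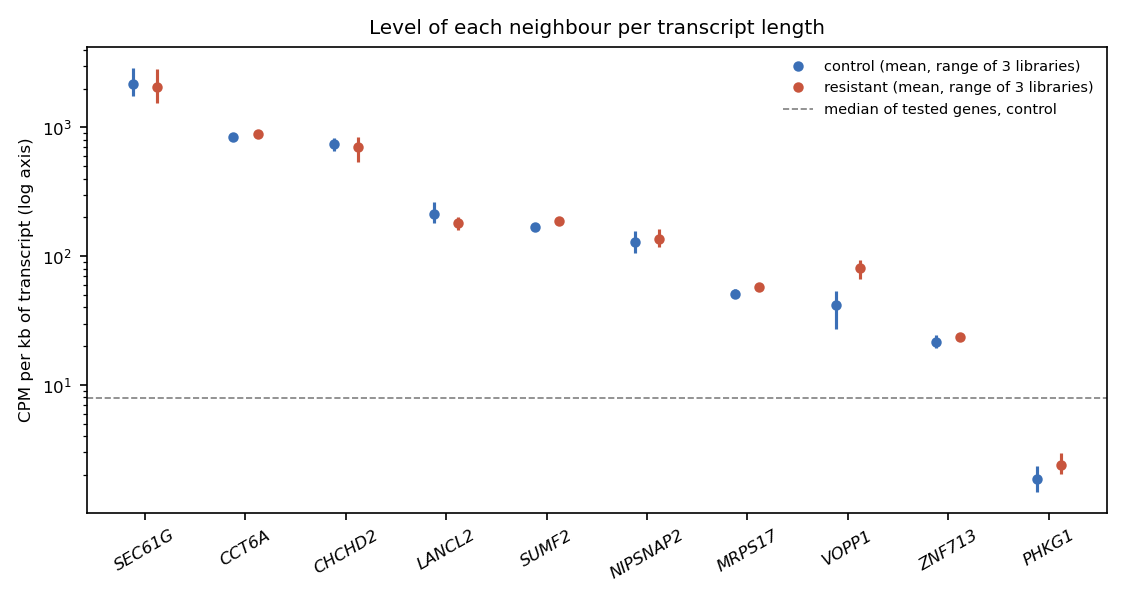
CPM per kilobase of transcript of the 10 neighbours on a log axis, with the mean as a point and the range of 3 libraries as a line, and the median of tested genes in control libraries dashed. From SEC61G (2159 CPM per kb in control) to PHKG1 (1.86) the order is nearly the same in both lines.

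The neighbours were also compared with their closest relatives or partners elsewhere in the genome, per kilobase of transcript in the control libraries, in comparisons chosen after the levels had been seen. LANCL2 was 33.1 times as abundant as its paralogue LANCL1 on chromosome 2 (214 against 6.46 CPM per kb). SUMF2 was 20.6 times as abundant as SUMF1, and NIPSNAP2 was 2.7 times as abundant as NIPSNAP1 (129 against 47.6 CPM per kb). PHKG1 went the other way, at 0.452 of PHKG2, the other catalytic subunit of phosphorylase kinase, or 0.178 per kilobase of coding sequence. ZNF713 stood at 21.4 CPM per kb against a median of 5.03 over 457 tested ZNF genes and ranked 26 among them.

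Subunits of the same complexes were compared in the same way. CCT6A stood at 3.87 times the median of the other 7 chaperonin subunits (844 against 218 CPM per kb), and none of them reached it, CCT3 being the closest at 346. SEC61G was 38 times the median of 10 translocon genes (56.8 CPM per kb), the most abundant of which was SSR2 at 156. MRPS17 was 2.03 times the median of 29 other genes of the mitochondrial small ribosomal subunit, with 6 of them above it, or 3.57 times with 1 above it per kilobase of coding sequence. CHCHD2 stood at 738 CPM per kb against 3.2 to 52 for 5 tested genes of the CHCHD family. CHCHD10, also in that list, was not among the tested genes. These ratios describe 1 cell line with no line of normal copy number beside it, so they do not measure amplification.

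Of 85 tested partner genes and paralogues encoded elsewhere, 10 were called between the lines (11.8%), a total close to the 11.5% called over all tested genes. By direction 2 were higher (2.35%, beside 6.17% over all tested genes) and 8 lower (9.41%, beside 5.33%). The counts in single lists are small. Of 13 tested chaperonin and prefoldin genes none was called, with a median log2 fold change of -0.11. The abundant subunit CCT5, for example, was at 1095 ± 118 CPM in the controls and 990 ± 29.5 CPM in the resistant line (SD, n = 3, edgeR adjusted p = 0.511). Of 10 translocon genes 2 fell and none rose (median -0.20, beside 5.33% lower over all tested genes): SSR1, a subunit of the translocon-associated complex, by 1.55-fold (adjusted p = 0.00995) and SEC63, a channel cofactor, by 1.31-fold (0.0416). That count was 1 with the replicate block, 1 with upper quartile scaling, 1 in 2021 alone and 0 without the batch term. It was 1 without control replicate 1 or 3 or resistant replicate 1, and 0 without resistant replicate 2 or 3. Of 29 mitochondrial ribosomal genes 3 fell (10.3%) and none rose (median -0.12), and the 2 with the lowest adjusted p were MRPS10, from 43.3 ± 0.841 to 25.7 ± 1.29 CPM (adjusted p = 0.00318), and MRPS18A, from 47.3 ± 11.6 to 25.1 ± 4.43 CPM (0.00577). Without the batch term 1 of the 3 was called. The third that fell, MRPS6, lies on chromosome 21 (adjusted p = 0.0446). SSR1, SEC63, MRPS10 and MRPS18A are 4 of 5 tested partners on chromosome 6, a grouping made after their values had been seen. The remaining one, the chaperonin subunit TCP1, was not called (log2 fold change -0.14, adjusted p = 0.464). Of all 658 tested genes on chromosome 6, 34.7% fell and 3.5% rose, and of the 80 partners on other chromosomes 4 fell and 2 rose.

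Of the partners of the enzymes most did not pass, 8 of 10 in the phosphorylase list and 10 of 13 in the sulfatase list. Of 10 phosphorylase kinase and phosphorylase genes, PHKA2, a regulatory subunit on chromosome X, fell 1.79-fold from 91 ± 1.39 to 50.9 ± 2.25 CPM (edgeR adjusted p = 0.00205), and PYGL, the liver glycogen phosphorylase, rose 2-fold (0.00789), with 1 of the 2 called without the batch term. The log2 fold change of PHKG2 was 0.088 ± 0.12 SE (adjusted p = 0.674). Of 13 tested sulfatase genes ARSJ rose 1.76-fold (0.00444), and STS and ARSD, both on chromosome X, fell 3.15-fold (0.00109) and 1.87-fold (0.00363). The other tested partners and paralogues on chromosome X (PHKA1, IDS, VBP1, SSR4 and LANCL3) were not called. On that chromosome ARSD, STS and PHKA2 start at 2903972, 7147290 and 18892298, and the uncalled genes start at 37571661 (LANCL3) or farther along. These positions were compared after the values had been seen. The share called over all tested genes of chromosome X was not computed. The shares called, 20% and 23.1%, rest on 2 and 3 genes beside 11.5% over all tested genes. Of 5 CHCHD genes and 5 paralogues in the LANCL and NIPSNAP families none was called. The lowest adjusted p in those 2 lists were 0.271 and 0.138.

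Across the 6 libraries the genes most like VOPP1 in log2 CPM were GPSM1, CRACDL, DKK1, MGAT5 and ADGRB2, each with a likeness of at least 0.99 (Pearson's r, as a description). The likeness to VOPP1 was added after its rise had been seen. For EGFR they were CAPZA1, EFR3A, CASP1, FMNL2 and PATJ, also at 0.99 or more. For the mean of the 10 neighbours they were NEDD9, NOTCH2NLA, MFSD2A, RBKS and TGFBI at 0.97 to 0.98. None of these 15 genes lies on chromosome 7. They were the highest of 10507 genes over 6 libraries that share 2 batches and 2 lines, and values this high arise readily in so few libraries. Among the neighbours themselves, EGFR was most like MRPS17 (0.94) and least like LANCL2 (-0.69), and SEC61G was most like NIPSNAP2 (0.92).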

How the data were processed

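The authors deposited whole-number counts per Entrez gene that were not normalised, 1 column per library. Trimmomatic 0.38, STAR 2.7.8a and featureCounts of Subread with GRCh38 are named per the submitters' processing notes, and the labels' protocols name capture with exome probes. Not given in the sources used here are the strand setting, how multi-mapping reads were handled and the annotation release.

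Columns were matched to samples by library name, and 27745 of 28395 IDs to a RefSeq table of GRCh38.p14 for names and positions. No 2 libraries of a group looked like 1 library deposited again (chi-square divided by its degrees of freedom, 70 to 215). Separate cultures are not named in the labels, so a p-value here reflects only library-to-library spread, possibly technical. Counts were filtered with filterByExpr by group, scaled by TMM and tested with edgeR 4.0.16 (glmQLFit at its default setting) with the batch as a term, which leaves 3 residual degrees of freedom. Standard errors derive from the F statistic and log2 CPM uses a prior count of 2. Within-batch differences use log2 CPM. Adjusted p-values are over 13950 genes, with a threshold of 0.05. Ratios were compared by an exact two-sided permutation test of the group labels. Reads carry no molecular identifiers, so they are not independent molecules.

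Deviations from the group mean of same-numbered control and resistant libraries correlated across genes at 0.729, 0.143 and 0.155. Crossed numbers within 2021 correlated more (0.57 and 0.477), so the values give no ground for pairing by number there. The pair at 0.729 makes up a batch of its own, so pairing and batch cannot be told apart for it. The main test used the batch term without pairing, and the number served as a block only among the alternatives. The rule for names took all 10 neighbours and EGFR, tested genes within 3 Mb, the nearest 5 beyond on each side and, in each partner list, up to 2 risen and 2 fallen genes. The neighbours and lists were chosen with earlier results of these data known. The test was tried on simulated counts of 13950 genes with 200 changed (3 rounds), where 10.1% of calls were unchanged genes. Alternatives were DESeq2 1.42.0 and its size factors, limma 3.58.1 voom, upper quartile scaling, 2 other filters, no batch term, the replicate block, 2021 alone and leaving out each library. The robust option of glmQLFit and the newer quasi-likelihood method were added after the data were seen. The default was run first; several edgeR settings were then tried to find the one behind an earlier count of called genes, which was the robust option, and that was adopted and then dropped for the default, since the written design names no robust option. VOPP1 is called with the default and not with the robust option, and both results were known when the choice was made.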

Additional observations from a re-analysis of the deposited data

How the results depend on the processing

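Over 17 alternative settings the 10 neighbours gave 170 recomputed log2 fold changes, of which 161 kept their direction and their side of the threshold. Of the other 9, 8 were settings in which VOPP1 did not pass, and 1 was CHCHD2, which ranged from -0.19 to 0.041 when a library was left out and turned to 0.041 without resistant replicate 3. The number of neighbours called was 1 in the main test and 0 without the batch term, 0 with the replicate block, 0 in 2021 alone and 0 with the robust option, and it ranged from 0 to 1 when a library was left out. The replicate block, which pairs same-numbered libraries, changed no other call among the neighbours, with 1149 genes called in all. All genes called numbered 1604 in the main test, 2579 with no filter on low counts, 354 without the batch term and 907 in 2021 alone, and from 625 to 1717 when a library was left out. Genes called between batches numbered 3103, and from 209 to 4061 when a library was left out. The causes of these shifts were not tested, and leaving out a library also lowers the number of libraries. With PHKG1 at 168 to 454 counts per library, its interval was the widest among the 9 neighbours that did not pass.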
